A study of Ovis aries with 48 samples.

Results

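MIR103 and MIR107 are a pair of closely related microRNAs, followed here in sheep adipose tissue because both are known as regulators of insulin sensitivity. They were chosen by name, as the rows MIR103 and MIR107 of the microRNA tables, and make up 1.90% of the microRNAs listed, of which 80 (T cohort) and 73 (BPA cohort) passed the filter on low values between depots. Earlier results of these data were known when the pair and the lists used below were chosen. Their p-values, ranks and counts therefore do not come from an independent choice. Small RNA was sequenced from fat of 16 female sheep, giving 48 libraries in 12 groups of 4. In the T cohort, prenatal T sheep had mothers injected intramuscularly with 100 mg doses of testosterone propionate in corn oil from day 30 to day 90 of gestation. They were compared with control sheep, for which the labels name no vehicle, and each of these 8 sheep gave epicardial, perirenal, visceral and subcutaneous fat. In the BPA cohort, prenatal BPA sheep had mothers given bisphenol A subcutaneously at 0.5 mg per kg per day over the same days of gestation, and control mothers received corn oil alone. Each of these 8 sheep gave visceral and subcutaneous fat. All animals were kept on a maintenance diet that limited obesity, and the labels do not give their age.

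In mammals, the genes of MIR103 and MIR107 lie in introns of pantothenate kinase (PANK) genes, whose enzymes begin coenzyme A synthesis, and belong to the miR-15/miR-107 group, whose members share a short core of their seed. In mice both are raised in the liver of obese animals and lower insulin sensitivity, with caveolin-1, a membrane protein that stabilises the insulin receptor, as a direct target. In the RefSeq annotation of the sheep assembly ARS-UI_Ramb_v3.0, MIR103 lay within PANK3 on chromosome 16 and MIR107 within PANK1 on chromosome 22. The mature forms of the pair are nearly identical, and how reads that fit both, or another copy of the MIR103 sequence, were assigned is not given in the labels or headers. Their separate levels are uncertain to that degree.

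The libraries held 222537 to 1533680 microRNA reads (median 605582.5). MIR103 had 139 to 2985 reads per library (median 969.5) and ranked 31st to 37th among the microRNAs listed. MIR107 had 42 to 932 reads (median 279) and ranked 37th to 48th, so that its values carry the larger counting error. Library numbers in the labels fell into an early set (up to 48) and a later set (from 81), which were unevenly spread over the groups. In the 8 groups with both sets, the log2 level of later minus early libraries averaged -0.25 for MIR103 (below 0 in 6 groups) and -0.14 for MIR107 (below 0 in 5 groups). Among microRNA markers of other cells, MIR133, the 1 of 8 listed striated muscle microRNAs in the tables, had a median of 2828 CPM (libraries set to equal microRNA reads) in epicardial fat, against medians of 202 to 326 in the other depots of the T cohort. MIR150 was the 1 measured of 7 listed microRNAs of lymphocytes and other blood cells. Its T cohort medians were 6055 CPM in epicardial, 4698 in visceral, 3752 in perirenal and 3186 in subcutaneous fat, and no depot comparison called it. No marker of adipocytes was listed, so the labelled tissue was not checked beyond these and the MIR200 and MIR143 values below.

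The depots were compared first, on values rescaled over all libraries of a cohort, since the deposited values had been scaled separately in each depot. In the T cohort, both microRNAs were lower in epicardial, perirenal and visceral fat than in subcutaneous fat, and the difference was larger for MIR103. The rescaled level of MIR103 averaged 591 ± 74.7 normalised reads in epicardial, 701 ± 108.4 in perirenal, 755 ± 149 in visceral and 1740.4 ± 408 in subcutaneous fat (SD, n = 8 sheep each). In the same order MIR107 averaged 211 ± 34.9, 226 ± 40.2, 216 ± 52.1 and 357 ± 74.9 normalised reads. The order of the means was therefore subcutaneous, visceral, perirenal and epicardial for MIR103, and subcutaneous, perirenal, visceral and epicardial for MIR107, and in both only subcutaneous fat stood apart from its neighbour by more than the spread between sheep. In bulk tissue, fewer cells that make a microRNA and less of it per cell cannot be told apart.

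**Figure D1:**
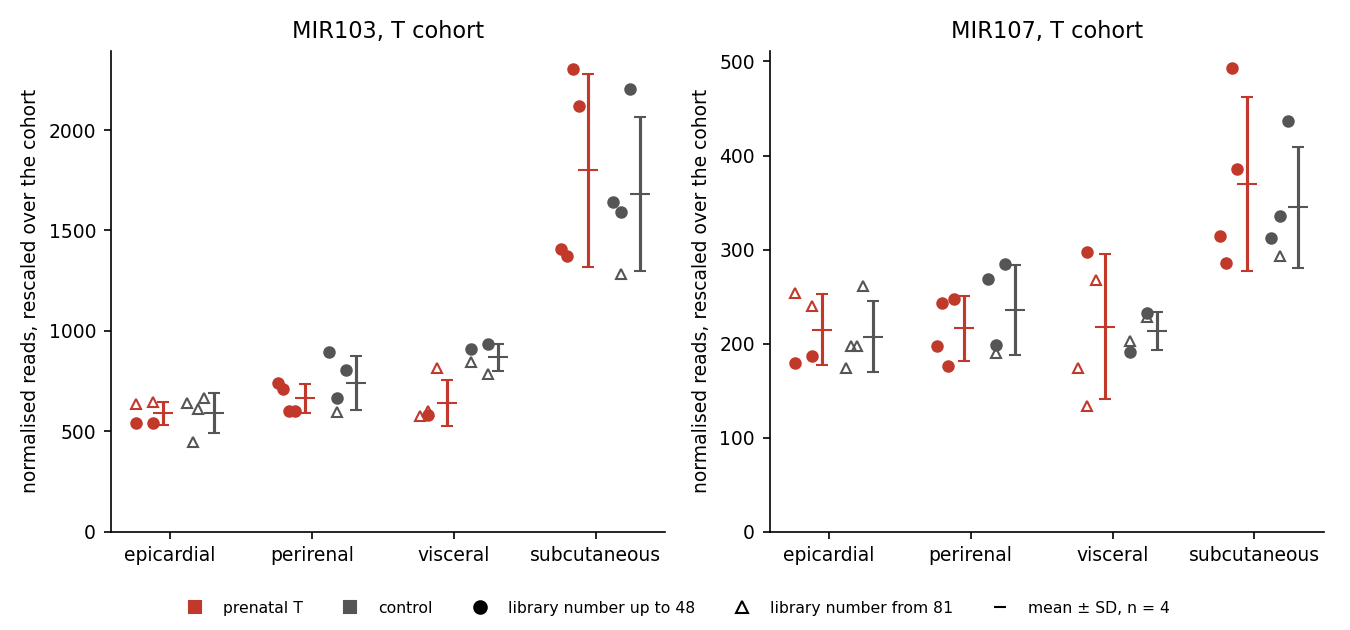
Rescaled normalised reads of MIR103 (left) and MIR107 (right) in the 32 libraries of the T cohort, by depot, with prenatal T sheep in red left of control sheep in grey; filled circles are libraries numbered up to 48, open triangles those from 81, and bars the mean ± SD of 4 sheep. Every subcutaneous library of MIR103 lies above every library of the other depots (lowest 1282, against a highest of 936 in visceral fat).

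Visceral fat held 576, 798 and 936 normalised reads of MIR103 (lowest, median and highest of 8 libraries), against 1282, 1617 and 2302 in subcutaneous fat. The 2 depots did not overlap, and all 8 sheep had less in visceral than in their own subcutaneous fat. The geometric mean in visceral fat was 0.437 times the subcutaneous one, a log2 difference of -1.20 (SE 0.157), called by limma with a Benjamini-Hochberg adjusted p of 1.35e-06 over 80 microRNAs. A microRNA was called where this adjusted p was under 0.05, and 42.5% of the microRNAs tested were called in this comparison, so that a call by itself sets neither member apart. How many other microRNAs lacked overlap, or had 1 direction in all 8 sheep, was not counted for any pair of depots. These traits are therefore not shown to be particular to the pair. Of the 80 log2 differences, that of MIR103 was the 5th lowest.

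MIR107 held 134, 216 and 297 normalised reads in visceral fat, against 285, 325 and 493 in subcutaneous fat. The ranges touched, since 1 visceral library lay above the lowest subcutaneous one, but again all 8 sheep had less in visceral fat. The log2 difference was -0.74 (SE 0.183, limma adjusted p = 0.00149), the 10th lowest of 80. The summed level of MIR200A, MIR200B and MIR200C, the 3 of 6 listed epithelium and mesothelium microRNAs in the tables, was 4.49 to 407.5 CPM (median 188) in visceral and 10.1 to 44.3 CPM (median 17.2) in subcutaneous fat, and its part in these differences was not tested.

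Epicardial fat, which lies on the heart, held the lowest mean of MIR103. Its libraries had 448, 622 and 666 normalised reads of MIR103 (lowest, median, highest), below every subcutaneous library. The log2 difference from subcutaneous fat was -1.53 (SE 0.157, limma adjusted p = 1.99e-09), lower in 8 of 8 sheep, where 60% of microRNAs were called. MIR107 had 174, 197 and 261 normalised reads in epicardial fat, also without overlap with subcutaneous fat. Its log2 difference of -0.75 (SE 0.183, limma adjusted p = 0.000935) was the 13th lowest of 80 and had the same direction in 8 of 8 sheep. MIR133 was high in these epicardial libraries (372 to 25850 CPM, against 132 to 881 in subcutaneous fat), and its part in the difference was not tested. The MIR200 sum was 61.6 to 178.4 CPM (median 88.1) in epicardial fat, against 10.1 to 44.3 CPM (median 17.2) in subcutaneous fat, and its part was likewise not tested.

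Perirenal fat, around the kidney, held 594, 688 and 894 normalised reads of MIR103, and no library reached the subcutaneous range. The log2 difference from subcutaneous fat was -1.29 (SE 0.157, limma adjusted p = 9.17e-08), the 3rd lowest of the 80 microRNAs, 48.8% of which were called. MIR107 had 177, 221 and 284 normalised reads in perirenal fat, with the highest library just under the lowest subcutaneous one (285). Its log2 difference was -0.65 (SE 0.183, limma adjusted p = 0.00405), the 16th lowest of 80 and again lower in 8 of 8 sheep. MIR143, the 1 of 2 listed smooth muscle microRNAs in the tables, had 37170 to 175300 CPM (median 125800) in perirenal fat, against 21070 to 73830 CPM (median 37670) in subcutaneous fat, and its part in these differences was not tested.

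These differences depended on the scale to unequal degrees. MIR103 stayed lower than in subcutaneous fat, with an adjusted p under 0.05, under every scaling tried. For MIR107 the call against subcutaneous fat held for visceral fat under every scaling, but was lost for epicardial fat when libraries were set to equal microRNA reads (log2 difference -0.26) or kept as deposited (-0.24). It was also lost for perirenal fat at equal reads (-0.36), and as deposited that difference turned to 0.16. Relative to the cohort-wide scale, the deposited one was shifted by 0.32 log2 units for epicardial, 0.63 for perirenal, -0.85 for visceral and -0.19 for subcutaneous libraries. At equal reads the split of all calls also moved: 35 were higher and 6 lower for epicardial against subcutaneous fat, in place of 30 and 18, and 27 were higher and 7 lower for perirenal fat, in place of 23 and 16. As deposited, 14 were higher and 33 lower for visceral against subcutaneous fat, in place of 20 and 14.

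Among the 3 internal depots the pair differed less. MIR103 differed by -0.34 log2 units between epicardial and visceral fat (95% interval -0.66 to -0.02), which missed the threshold after adjustment (limma adjusted p = 0.135), although 7 of 8 sheep had the lower value in epicardial fat. Perirenal and visceral fat differed by -0.10 for MIR103 (interval -0.42 to 0.23), and epicardial and perirenal fat by -0.24 (-0.56 to 0.08). For MIR107 the 3 differences were -0.01, 0.08 and -0.09, with intervals that lay between -0.47 and 0.46. In these 3 comparisons 12.5%, 26.2% and 21.2% of microRNAs were called. Neither member was among them. Some of these small differences changed sign with the scale. MIR103 was 0.17 higher in epicardial and 0.21 higher in perirenal than in visceral fat at equal reads, and 0.84 and 1.39 higher on the deposited scale, where visceral libraries lie lowest. MIR107 was 0.49 (equal reads) and 1.16 (as deposited) higher in epicardial than in visceral fat, and 0.11 higher in epicardial than in perirenal fat at equal reads. The other signs were kept, for MIR107 between perirenal and visceral fat and for MIR103 between epicardial and perirenal fat.

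**Figure D2:**
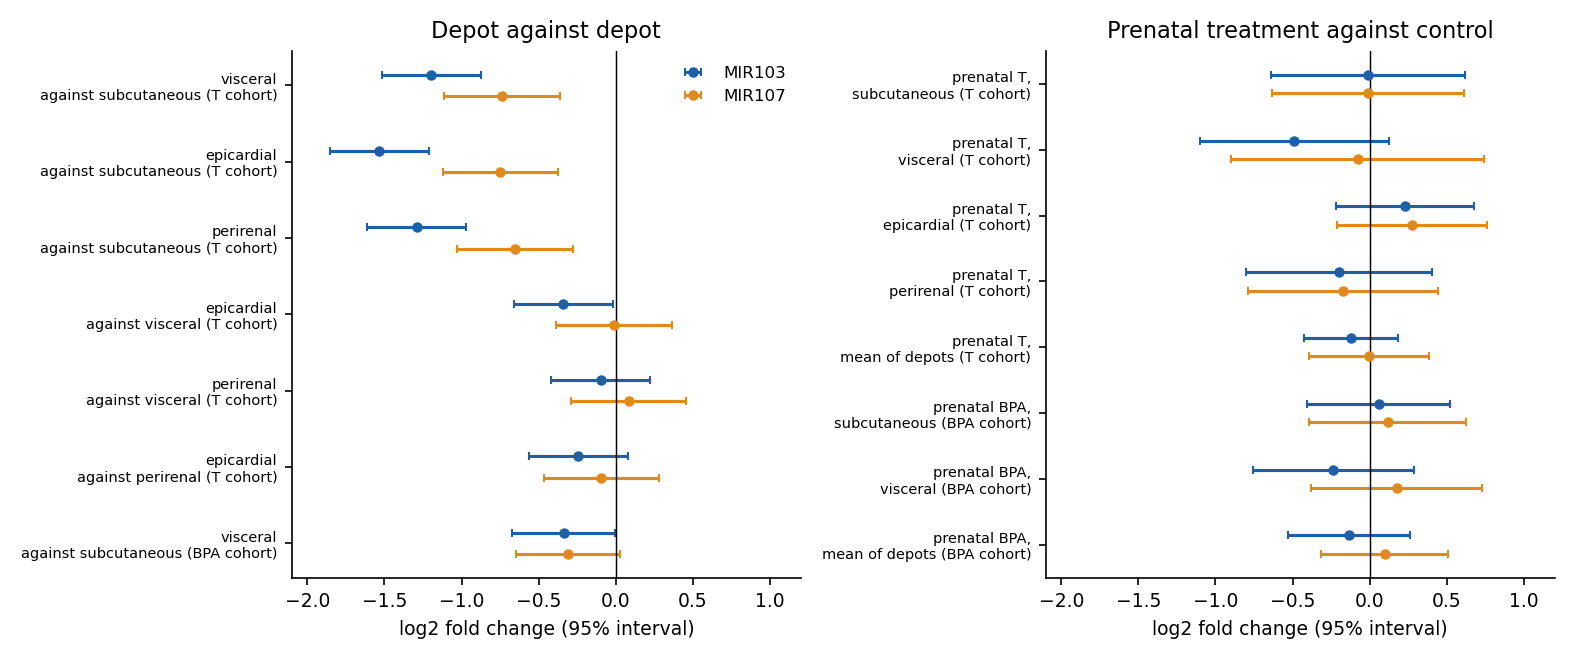
Log2 fold changes of MIR103 (blue) and MIR107 (orange) with 95% intervals from limma, for each pair of depots (left) and for prenatal treatment against control (right), where 0 marks no difference. The 3 comparisons with subcutaneous fat in the T cohort have intervals wholly below 0 for both microRNAs, from -1.86 to -0.28, and every treatment interval includes 0.

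Because both microRNAs are read in the same library, the number of MIR103 reads per MIR107 read does not depend on how libraries are scaled. This ratio lay between 1.95 and 5.50 in the 48 libraries (median 3.56). In the T cohort it averaged 2.84 ± 0.441 in epicardial, 3.14 ± 0.409 in perirenal, 3.65 ± 0.907 in visceral and 4.86 ± 0.386 in subcutaneous fat (SD, n = 8). Epicardial libraries had 2.28 to 3.70 and perirenal libraries 2.43 to 3.76, all below the lowest subcutaneous library (4.38). Visceral libraries ran from 1.95 to 4.77 and overlapped with subcutaneous fat.

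Within sheep, the ratio was lower than in subcutaneous fat in 8 of 8 sheep for each of the other 3 depots. The mean log2 difference was -0.79 for epicardial, -0.64 for perirenal and -0.46 for visceral fat. Each had p = 0.00781 in an exact two-sided permutation test of the signs of the paired differences, the smallest that 8 pairs allow, and an adjusted p of 0.0182 over the 7 depot comparisons made. MIR103 was thus lower relative to MIR107 outside subcutaneous fat in the 8 sheep of the T cohort, whichever scale is used. For the BPA cohort the ratio differed by -0.03 between visceral and subcutaneous fat, lower in 5 of 8 sheep. How reads that fit both members were assigned is not given, so the ratio is uncertain to that degree. The ratio also moved with the library set, with a mean later minus early log2 difference of -0.11 over the 8 groups with both sets (below 0 in 7, range -0.46 to 0.87). Early libraries were 2 of 8 in epicardial, 7 of 8 in perirenal, 3 of 8 in visceral and 7 of 8 in subcutaneous fat. Between libraries of 1 sheep that were both early, the ratio differed from subcutaneous fat by -0.80 for epicardial (2 sheep), -0.62 for perirenal (6 sheep) and -0.61 for visceral fat (3 sheep). Where both were later, the single sheep had -0.78 for epicardial and -0.36 for visceral fat. Between the internal depots the ratio differed by -0.33 (epicardial against visceral, adjusted p = 0.15), -0.18 (perirenal against visceral) and -0.15 (epicardial against perirenal, both adjusted p = 0.273). Between epicardial and perirenal libraries of 1 set it had the opposite sign, at 0.14 in the early (2 sheep) and 0.25 in the later set (1 sheep). Without sheep 255, whose visceral library had the lowest ratio of all (1.95), the epicardial difference from visceral fat became -0.45 with an adjusted p of 0.0273 (exact permutation test).

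**Figure D3:**
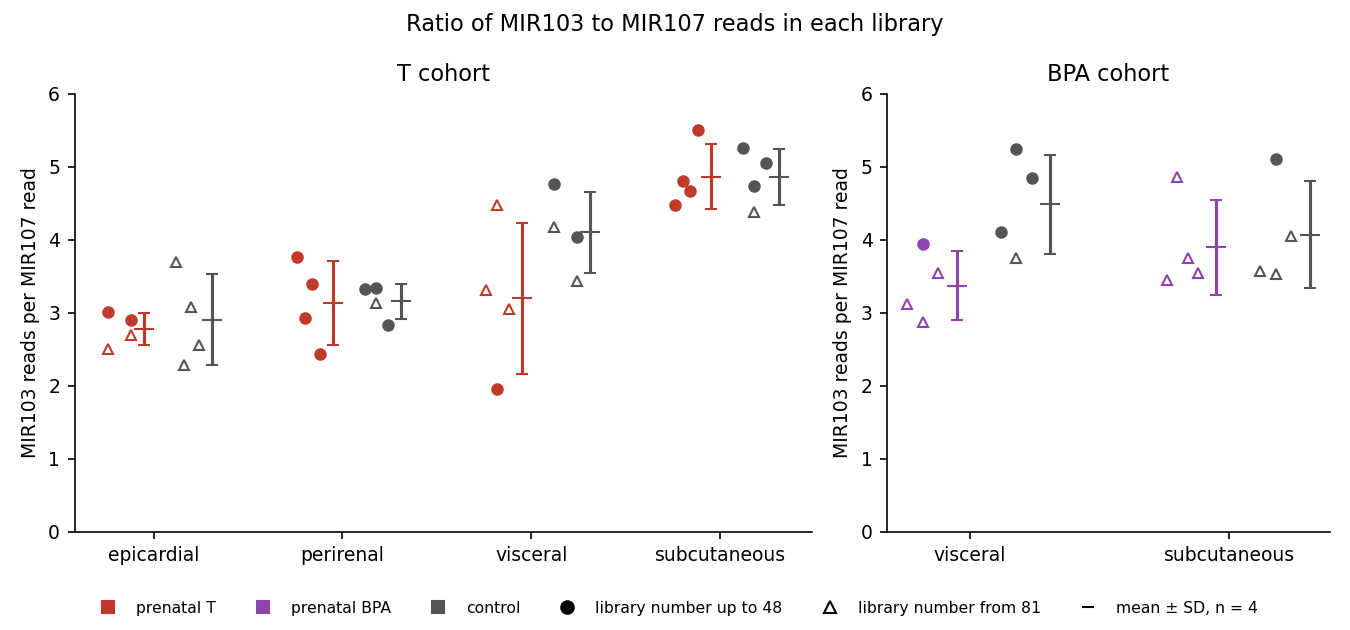
MIR103 reads per MIR107 read in each library of the T cohort (left) and the BPA cohort (right), by depot, with treated sheep in colour left of control sheep in grey; circles are libraries numbered up to 48, triangles those from 81, and bars the mean ± SD of 4 sheep. In the T cohort the subcutaneous ratios (4.38 to 5.50) lie above all epicardial and perirenal ones, whereas in the BPA cohort the visceral and subcutaneous ratios share one range.

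In the BPA cohort the depots differed less. MIR103 had 517, 833 and 1038 normalised reads in visceral fat (lowest, median, highest of 8), against 742, 1009 and 1377 in subcutaneous fat. The ranges overlapped widely, and 6 of 8 sheep had less in visceral fat. The log2 difference was -0.34 (SE 0.16, limma adjusted p = 0.0792), not called in a comparison where 53.4% of 73 microRNAs were. A term for the library set brought it to -0.51 with a limma adjusted p of 0.00815, and leaving out sheep 902 gave -0.38 with an adjusted p of 0.0489. MIR107 had 165, 211 and 246 normalised reads in visceral fat, against 208, 263 and 335 in subcutaneous fat. Its log2 difference was -0.31 (SE 0.161, limma adjusted p = 0.108), with 6 of 8 sheep lower in visceral fat. Of the 73 log2 differences, those of MIR103 and MIR107 were the 25th and 26th lowest. The ratio of the pair averaged 3.93 ± 0.803 in visceral and 3.98 ± 0.648 in subcutaneous fat, a paired log2 difference of -0.03 (exact permutation test, adjusted p = 0.805). The library sets were uneven here, with 4 of 8 visceral and 7 of 8 subcutaneous libraries from the later set. In the 5 sheep whose 2 libraries came from 1 set, the ratio differed by -0.15 on average, below 0 in 4 of them.

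The visceral difference was larger in the T cohort than in the BPA cohort for both members. Taken sheep by sheep, visceral minus subcutaneous MIR103 averaged -1.20 ± 0.377 log2 units in T cohort sheep and -0.34 ± 0.387 in BPA cohort sheep (SD, n = 8 sheep each), a difference of -0.86 (exact two-sided permutation test, p = 0.000622, adjusted over 3 measures 0.00187). For MIR107 the means were -0.74 ± 0.263 for T cohort and -0.31 ± 0.367 for BPA cohort sheep (difference -0.43, exact permutation p = 0.0205, adjusted 0.0308). The log2 ratio of the pair gave -0.46 ± 0.459 for T cohort and -0.03 ± 0.326 for BPA cohort sheep (difference -0.43, exact permutation p = 0.0322, adjusted 0.0322). This comparison was added after the values had been seen, and the cohorts also differed in how the library sets fell on the depots. Among sheep whose 2 libraries came from 1 set (4 of the T cohort, 5 of the BPA cohort), the difference kept its direction but missed the threshold, at -0.68 for MIR103 (exact permutation p = 0.0397, adjusted 0.119), -0.29 for MIR107 (adjusted 0.226) and -0.39 for the ratio (adjusted 0.23). The MIR107 call was lost without any 1 of sheep 233, 902, 928 or 984 (adjusted p up to 0.059), and that of the ratio without any 1 of 233, 255, 902, 924, 928 or 984 (adjusted p up to 0.0721). In either arm alone none of the 3 measures was called, with differences of -0.98, -0.53 and -0.46 in treated sheep and -0.73, -0.34 and -0.40 in control sheep. An arm alone sets 4 sheep against 4, where the smallest exact permutation p is 0.0286 before adjustment. The lowest adjusted p of MIR103 there was 0.0857. A lost call in 1 arm therefore does not show a smaller difference.

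**Figure D4:**
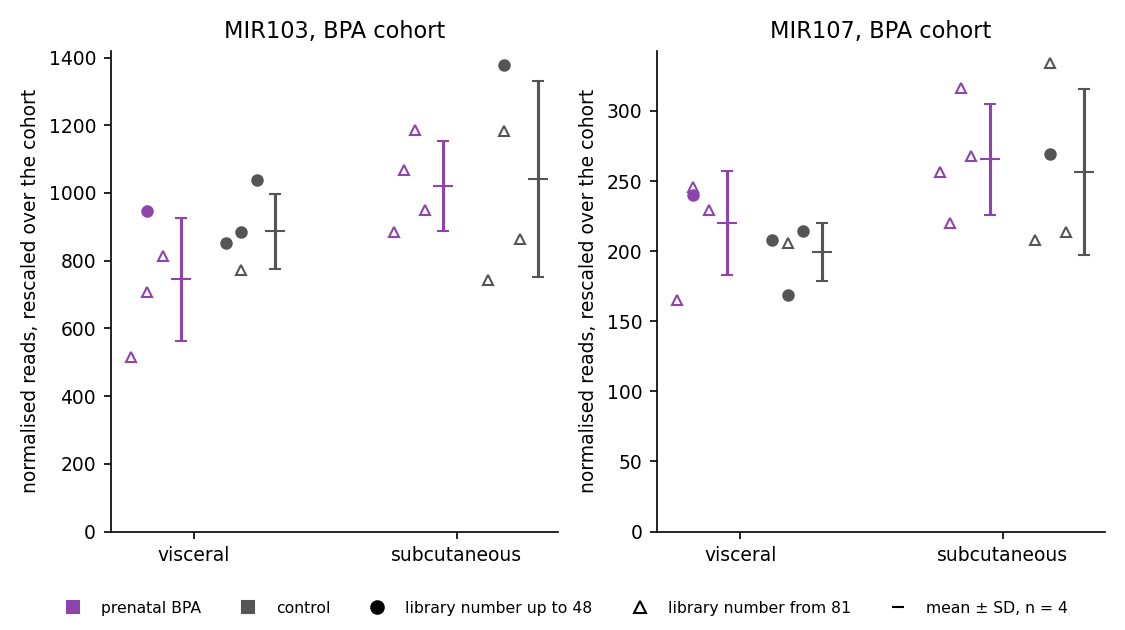
Rescaled normalised reads of MIR103 (left) and MIR107 (right) in the 16 libraries of the BPA cohort, by depot, with prenatal BPA sheep in purple left of control sheep in grey; symbols and bars are as for the T cohort. Visceral and subcutaneous libraries overlap for both microRNAs (MIR103 517 to 1038 in visceral and 742 to 1377 in subcutaneous fat).

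Prenatal treatment was then compared with control within each depot, on the deposited values. No treatment difference of MIR103 or MIR107 was called in any of the 6 depot comparisons, and 0% of the microRNAs tested were called in each. By limma, 2 of 71, 4 of 76, 20 of 85 and 7 of 86 microRNAs had an unadjusted p under 0.05 for prenatal T in subcutaneous, visceral, epicardial and perirenal fat, and 6 of 71 and 4 of 76 for prenatal BPA in subcutaneous and visceral fat. Neither member was among these microRNAs in any depot.

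In visceral fat of the T cohort, MIR103 had 294, 319, 349 and 442 normalised reads in prenatal T sheep, against 419, 462, 501 and 577 in control sheep. A single prenatal T library lay above the lowest control. The log2 difference was -0.49 (SE 0.278, 95% interval -1.10 to 0.13, limma adjusted p = 0.477), the largest treatment difference of either member. It became -0.05 at equal microRNA reads and -0.26 within the later library set (3 prenatal T and 2 control libraries). MIR107 had 77.9, 96.5, 145.1 and 150.4 normalised reads in prenatal T sheep, against 105.2, 110.8, 122.2 and 143.3 in control sheep. The prenatal T values lay on both sides of the controls, and the log2 difference was -0.08 (interval -0.90 to 0.74, limma adjusted p = 0.949).

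In subcutaneous fat of the T cohort, MIR103 had 1209, 1288, 1678 and 1867 normalised reads in prenatal T sheep, against 1117, 1396, 1487 and 2173 in control sheep. MIR107 had 268, 270.2, 339.5 and 359.6 normalised reads in prenatal T sheep, against 255, 283, 295 and 431 in control sheep. The prenatal T values lay inside the wider control range for both members, and each log2 difference was -0.01 (limma adjusted p = 0.997), with intervals between -0.64 and 0.62.

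In epicardial fat, MIR103 had 710.4, 777, 826 and 875 normalised reads in prenatal T sheep, against 532, 679, 755 and 774 in control sheep. MIR107 had 236, 268, 325 and 329.98 normalised reads in prenatal T sheep, against 209, 220.5, 234 and 296 in control sheep. Most prenatal T values lay above most control values, but the groups overlapped and the log2 differences of 0.23 (limma adjusted p = 0.44) and 0.27 (limma adjusted p = 0.398) were not called. They fell to 0.01 and 0.05 once libraries were rescaled over the cohort, and stayed at 0.22 and 0.27 at equal microRNA reads. All 4 control libraries were from the later set, against 2 of the 4 prenatal T libraries. With a term for the library set the differences rose to 0.33 and 0.46, and were still not called.

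Perirenal fat held 851, 996, 1078 and 1100.3 normalised reads of MIR103 in prenatal T sheep, against 965, 1059, 1252 and 1374 in control sheep. MIR107 had 292, 294, 349.9 and 368 normalised reads in prenatal T sheep, against 309, 317, 413 and 443 in control sheep. The groups overlapped for both, and the log2 differences were -0.20 (limma adjusted p = 0.723) and -0.17 (limma adjusted p = 0.78). Averaged over the 4 depots, prenatal T sheep differed from control by -0.12 for MIR103 (interval -0.43 to 0.18) and 0.00 for MIR107 (-0.39 to 0.39). At equal microRNA reads the perirenal differences turned to 0.38 and 0.40 and those in subcutaneous fat to 0.25 for both members, none of them called.

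In the BPA cohort, visceral MIR103 had 457, 644, 838 and 884 normalised reads in prenatal BPA sheep, against 688, 800.1, 804 and 944 in control sheep. Prenatal BPA sheep were more spread and overlapped with the controls, and the log2 difference was -0.23 (interval -0.76 to 0.29, limma adjusted p = 0.84). Visceral MIR107 had 146, 224, 224 and 237 normalised reads in prenatal BPA sheep, against 154, 183, 195 and 195 in control sheep. Here 3 prenatal BPA libraries lay above all controls and the lowest of the depot was also prenatal BPA, with a log2 difference of 0.17 (interval -0.38 to 0.73, limma adjusted p = 0.84).

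In subcutaneous fat of the BPA cohort, MIR103 had 987, 1046, 1202 and 1273 normalised reads in prenatal BPA sheep, against 854, 864, 1335 and 1362 in control sheep. MIR107 had 262, 287, 296 and 321 normalised reads in prenatal BPA sheep, against 211, 242, 267 and 378 in control sheep. In both cases the prenatal BPA values lay inside the range of the controls, with log2 differences of 0.06 (limma adjusted p = 0.904) and 0.12 (limma adjusted p = 0.863). Whether treatment effects differed between depots was tested as an interaction. It was not called among T cohort sheep (limma adjusted p = 0.939 for MIR103 and 0.974 for MIR107) or BPA cohort sheep (limma adjusted p = 0.847 for MIR103 and 0.927 for MIR107), where 0% of microRNAs were called and 2 of 80 and 1 of 73 had an unadjusted p under 0.05.

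The ratio of the pair was lower in visceral fat of treated sheep in both cohorts, but neither difference passed the threshold. With 4 sheep against 4 and adjustment over 6 comparisons, differences in visceral fat alone could not have passed at any size. The missing calls therefore decide nothing. Prenatal T sheep had 1.95, 3.04, 3.31 and 4.48 MIR103 reads per MIR107 read, against 3.43, 4.03, 4.17 and 4.77 in control sheep (log2 difference -0.41, exact permutation test, p = 0.171, adjusted over 6 comparisons 0.514). The difference was -1.16 within the early library set (1 prenatal T and 2 control libraries) and -0.09 within the later one (3 and 2), and without sheep 255 it was -0.19. Prenatal BPA sheep had 2.87, 3.12, 3.54 and 3.94 MIR103 reads per MIR107 read, against 3.75, 4.10, 4.84 and 5.23 in control sheep (log2 difference -0.41, exact permutation p = 0.0571, adjusted 0.343, where 0.0286 is the smallest p that 4 against 4 allows). In this depot 3 of the 4 prenatal BPA ratios lay below every control. The difference was -0.25 within the early set (1 prenatal BPA and 3 control libraries) and -0.24 within the later set (3 and 1). Fitted with a library set term it was -0.25 (labels permuted within sets, exact p = 0.125, where 0.0625 is the smallest possible), and for prenatal T it was -0.47 (exact p = 0.167). In the other 4 depot comparisons the log2 difference lay between -0.06 and 0.00 (adjusted p = 1 in each exact permutation test). The change of the visceral minus subcutaneous ratio with treatment was tested separately and was -0.41 for prenatal T and -0.35 for prenatal BPA (exact permutation tests, adjusted p = 0.2 for both).

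Whether the pair varied together between sheep was examined within each depot, on log2 levels as deposited, in 6 correlations over 8 sheep. In subcutaneous fat of the T cohort MIR103 and MIR107 had a Pearson r of 0.951 (permutation p = 0.000521, adjusted over 6 correlations 0.00313) and a Spearman rho of 0.929 (permutation p = 0.00223, adjusted 0.0134). Without the 2 sheep farthest from the median of MIR103, r there was 0.902. In the other T cohort depots r was 0.237 in visceral, 0.591 in epicardial and 0.617 in perirenal fat (rho 0.0238, 0.667 and 0.452), and in the BPA cohort 0.648 in subcutaneous and 0.534 in visceral fat (rho 0.548 and 0.333). None of these 5 passed (adjusted permutation p of at least 0.161 for r and 0.249 for rho). Without the 2 farthest sheep of each, r was 0.684 in visceral, 0.643 in epicardial and 0.802 in perirenal fat of the T cohort, and 0.141 in subcutaneous and 0.363 in visceral BPA cohort libraries. Both levels of a library share its scaling factor, so they are not independent measurements.

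**Figure D5:**
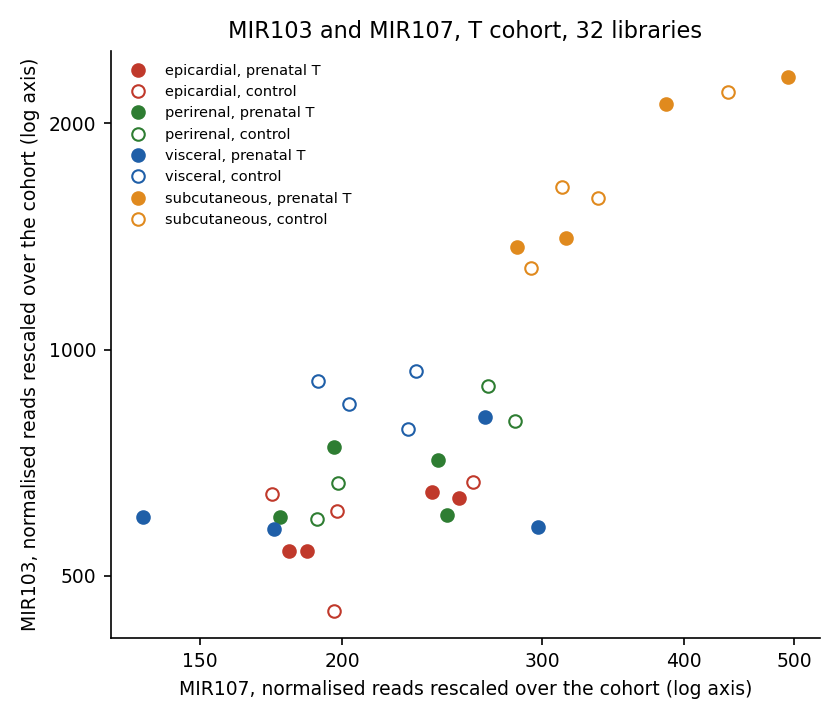
Rescaled normalised reads of MIR103 against MIR107 in the 32 libraries of the T cohort on log axes, coloured by depot, with prenatal T sheep filled and control sheep open. Subcutaneous libraries sit at the top right along one line, and the other depots form a cloud of at most 936 normalised reads of MIR103. On the deposited values, not those drawn here, r was 0.951 in subcutaneous fat and between 0.237 and 0.617 within the other depots. Differences between these correlations were not tested.

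The microRNAs most like each member were taken as the 5 with the highest Pearson r over the 32 libraries of the T cohort, out of 79 compared. For MIR103 these were MIR23A (r = 0.876), MIR221 (0.834), MIR107 (0.827), MIR17 (0.725) and MIR152 (0.707). Over the 16 libraries of the BPA cohort the same microRNAs had r of 0.691, 0.485, 0.684, 0.593 and 0.867 with MIR103. For MIR107 they were MIR103 (0.827), MIR17 (0.741), MIR23A (0.722), MIR152 (0.658) and MIR199A (0.645), with r of 0.684, 0.806, 0.601, 0.529 and 0.540 in the BPA cohort. The points share sheep, depot and scaling factor, so these values describe likeness across depots and carry no test.

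Of the miR-15/miR-107 group, 3 of 11 listed members were in the tables, and MIR16B was the only one beside the pair. MIR16B, of the miR-16 family known for limiting cell cycle genes, was not called against subcutaneous fat, with log2 differences of -0.55 in epicardial (limma adjusted p = 0.0695), -0.32 in perirenal (0.32) and 0.05 in visceral fat (0.914). The group's median log2 difference was -0.75, -0.65 and -0.74 in these depots, beside medians of 0.03, 0.07 and 0.13 over all 80 microRNAs. Since the pair make up most of the group, this says nothing beyond their own values.

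Other microRNAs linked to insulin action or glucose handling, mostly in mice, were followed as a list of 27, of which 16 were in the tables and passed the filter. Against subcutaneous fat of the T cohort, 0 of 16 rose and 3 fell in epicardial fat, 4 rose and 5 fell in perirenal fat, and 0 rose and 1 fell in visceral fat. Over all 80 microRNAs, 37.5% rose and 22.5% fell in epicardial, 28.8% rose and 20% fell in perirenal, and 25% rose and 17.5% fell in visceral fat. Medians of the list were -0.44, -0.25 and 0.08 log2 units, beside the medians over all microRNAs given above. These counts and medians depended on the scale. At equal reads 1 of the 16 rose and 0 fell in epicardial fat (35 and 6 of all microRNAs), and 0 rose and 1 fell in visceral fat (17 and 12 of all). As deposited 3 rose and 0 fell in epicardial fat (37 and 7 of all), and 0 rose and 8 fell in visceral fat (14 and 33 of all). The median turned to 0.05 at equal reads and 0.07 as deposited in epicardial fat, to 0.04 and 0.57 in perirenal fat, and to -0.58 as deposited in visceral fat. Over all microRNAs the same medians were 0.58 and 0.54 in epicardial, 0.46 and 0.86 in perirenal, and -0.53 in visceral fat.

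MIRLET7I, of the let-7 family, which in mice curbs insulin signalling, fell in visceral fat (log2 difference -0.86, limma adjusted p = 0.001) and in epicardial fat (-0.90, limma adjusted p = 0.000403). MIR27A, an inhibitor of adipocyte differentiation, fell in epicardial (-0.74) and perirenal fat (-0.62). MIR143, abundant in smooth muscle and raised in livers of obese mice, fell in epicardial fat (-0.85) and rose in perirenal fat (1.19). The 3 epicardial calls were lost at equal reads and as deposited, with the direction kept.

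In perirenal fat MIR29B-1 and MIR29B-2, paralogues with identical values that cannot be told apart, rose by 1.16 log2 units, and MIRLET7F rose by 0.96. MIRLET7B (-1.05), MIR181A-1 (-0.78), MIR181A-2 (-0.75) and MIR29A (-0.69) fell (limma adjusted p between 0.00355 and 0.0456 for these 4). At equal reads 4 of the list rose and 1 fell in perirenal fat (27 and 7 of all microRNAs). As deposited, 7 rose and none fell, where 43 of all 80 microRNAs rose and 3 fell. MIR29A, MIR27A, MIR181A-1 and MIR181A-2 then turned to positive differences that were not called.

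Among the internal depots, 0 of the 16 were called between epicardial and visceral fat, where 7.5% of all microRNAs rose and 5% fell. At equal reads 2 of the 16 rose and 0 fell (13 and 1 of all microRNAs), and as deposited 9 rose and 0 fell (60 and 1 of all). Between perirenal and visceral fat MIR143 (1.41) and MIRLET7F (1.26) rose, and MIRLET7B (-1.46), MIRLET7C (-1.15), MIR181A-1 (-0.98) and MIR181A-2 (-0.96) fell, beside 8.75% and 17.5% of all microRNAs that rose and fell. These 4 falls turned to positive differences, not called, on the deposited scale. Between epicardial and perirenal fat MIR143 (-2.04), MIRLET7F (-1.23) and both MIR29B rows (-1.06) fell, under all 3 scalings, where 10% of all microRNAs rose and 11.2% fell.

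In the BPA cohort, 1 of the 16 rose and 6 fell in visceral against subcutaneous fat, where 28.8% rose and 24.7% fell among all 73 tested. The falls were MIR27A (-0.92), MIR29A (-0.77), MIR26B (-0.67), MIRLET7I (-0.58), MIR26A (-0.38) and MIRLET7G (-0.28), and MIRLET7B rose by 0.54. MIRLET7G was not called at equal reads and MIRLET7B was not called as deposited. MIRLET7I thus fell in visceral fat of both cohorts. Prenatal treatment changed 0 of the 16 in any depot of either cohort by limma.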

How the data were processed

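A NEBNext kit was used for the small RNA libraries, per the labels' protocols, and the submitters' processing notes name cutadapt 3.2, STAR 2.6.0c and featureCounts 1.6.1. Neither genome build nor microRNA annotation was given in the sources used here. The authors deposited a scaled signal, reads divided by a factor per library, in 1 microRNA table per cohort. All values were whole multiples of 1 step per library (100%, tolerance 1e-05). These steps gave the read numbers, and the factors equalled median-of-ratios factors set within each depot. Depots were compared after median-of-ratios rescaling over a cohort, treatments as deposited.

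MicroRNAs with a mean of at least 5 were tested as log2(value + 1), a scale that understates changes of low levels, with limma 3.58.1 in R 4.3.3, trend on. Depots, mean treatment effects and interactions used all groups of a cohort, and each treatment comparison its own depot. Benjamini-Hochberg adjustment covered all microRNAs tested. Ratios used reads with 0.5 added for the log2 differences, and exact permutation tests (scipy 1.17.1). The fits were also run on simulated data, but no outcome is given here and no result rests on it. Depots of 1 sheep are paired by animal, but the main limma depot fits left sheep out and took libraries as independent. A fit with a block for sheep is given below as a separate setting. The median r of deviations between depots of 1 sheep was 0.147 (T cohort, 27 of 48 pairs above 0.1) and 0.183 (BPA cohort, 6 of 8), against -0.04 and 0.01 between different sheep. No replicates agreed within sampling noise (chi-square per degree of freedom 32 or more over 72 pairs). Named microRNAs were the pair, the miR-15/miR-107 group, the 5 most like each, and called members of the insulin list. The pair and the lists were chosen with earlier results of these data known.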

Additional observations from a re-analysis of the deposited data

Results flagged for a closer look

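Of 36 checks of groups of 4, 1 library stood apart from the rest of its group. MIR107 in visceral fat of prenatal BPA sheep 910 had 146.2 normalised reads, where the nearest of the other 3 had 224 and the farthest 237. Chance sets apart about 1 in 20 such groups.

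The visceral minus subcutaneous difference was not the same in both cohorts by exact permutation tests. The T cohort lay below the BPA cohort by -0.86 log2 units for MIR103, by -0.43 for MIR107 and by -0.43 for their ratio. The cohorts also differed in their spread of the library sets. In sheep with both libraries in 1 set the differences were -0.68, -0.29 and -0.39, none with an adjusted p under 0.05.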

How the results depend on the processing

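The planned edgeR and DESeq2 fits were not run. No treatment or interaction result of either member was called under any setting run, and MIR103 stayed called below subcutaneous fat in the T cohort under all. The cause of each change below was not tested.

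With libraries at equal microRNA reads, treatment differences changed sign for prenatal T in subcutaneous fat (MIR103 0.25, MIR107 0.25), visceral fat (MIR107 0.36), perirenal fat (0.38 and 0.40) and the mean of depots (0.20 and 0.32), and for BPA in subcutaneous fat (-0.19 and -0.14). Rescaled over the cohort, the subcutaneous ones were 0.088 and 0.086. The mean for MIR107 as deposited was 0.0018, and that of MIR103 for BPA with a set term 0.068. Between depots, equal reads gave MIR107 -0.26 (epicardial) and -0.36 (perirenal) against subcutaneous fat, and changed the sign for epicardial against visceral (MIR103 0.17, MIR107 0.49), perirenal against visceral (MIR103 0.21) and epicardial against perirenal fat (MIR107 0.11). As deposited, MIR107 gave -0.24 (epicardial) and 0.16 (perirenal) against subcutaneous fat. MIR103 and MIR107 then gave 0.84 and 1.16 for epicardial and 1.39 and 1.56 for perirenal against visceral fat, -0.55 for epicardial against perirenal fat (MIR103), and -0.57 and -0.53 for visceral against subcutaneous fat in the BPA cohort, all called.

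In 1 arm alone, MIR107 missed the threshold for visceral (controls -0.68, treated -0.80) and perirenal against subcutaneous fat (controls -0.55, treated -0.75). Treated libraries alone gave small positive values for epicardial (MIR107 0.034) and perirenal (MIR103 0.056) against visceral fat. The replicate block, which pairs libraries of 1 sheep, changed no call of either member (visceral against subcutaneous fat, T cohort, -1.20 and -0.74). Block and set term together called MIR103 in the BPA cohort (-0.45), as the set term alone did (-0.51), and gave MIR107 0.0093 (epicardial against visceral) and 0.0046 (epicardial against perirenal). The set term alone gave 0.0061 for the first of these.

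Within the early set, the ratio differed by -0.61 (visceral) and -0.62 (perirenal) from subcutaneous fat, nearly as low as or lower than over both sets (-0.46 and -0.64), but with 3 and 6 pairs, which allow no p below 0.25 and 0.031 before adjustment, neither was called. Within the early set it differed by -0.048 with prenatal T, and within the later set by 0.056 with BPA, in subcutaneous fat, as it did with a set term. The cohort difference in MIR103, MIR107 and the ratio was -0.73, -0.34 and -0.40 in control sheep alone, -0.98, -0.53 and -0.46 in treated sheep alone, and -0.68, -0.29 and -0.39 within sets, with no adjusted p under 0.05. In 1 arm, 4 sheep against 4 allow no exact permutation p below 0.0286 before adjustment.

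Leaving out 1 sheep at a time, MIR103 ranged over -0.15 to 0.17 for prenatal T and -0.052 to 0.17 for BPA in subcutaneous fat, and -0.42 to -0.26 for visceral against subcutaneous fat in the BPA cohort. MIR107 ranged over -0.11 to 0.15 (subcutaneous), -0.21 to 0.10 (visceral) and -0.064 to 0.082 (mean) for prenatal T. It ranged over -0.094 to 0.11 for epicardial and -0.053 to 0.19 for perirenal against visceral fat. The ratio ranged over -0.060 to 0.041, -0.15 to 0.082 and -0.12 to 0.090 for prenatal T in subcutaneous, epicardial and perirenal fat, and -0.17 to 0.056 for BPA in subcutaneous fat. Between depots it ranged over -0.45 to -0.22 (epicardial against visceral) and -0.12 to 0.019 (BPA cohort). The cohort difference ranged over -0.53 to -0.37 for MIR107, above the threshold without sheep 233, 902, 928 or 984, and over -0.49 to -0.28 for the ratio, above it without 233, 255, 902, 924, 928 or 984. For MIR103 it stayed called (-0.93 to -0.76).

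Counts of calls over all microRNAs moved most for perirenal against visceral fat (21, from 1 in controls alone to 63 as deposited) and epicardial against visceral fat (10, from 1 in treated alone to 61 as deposited). They ranged over 13 to 47 for visceral, 38 to 55 for epicardial and 16 to 47 for perirenal against subcutaneous fat, 3 to 30 for epicardial against perirenal fat and 18 to 53 in the BPA cohort. For prenatal T they reached 2 in subcutaneous and 8 in epicardial fat (without sheep 233), and for BPA 1 over both depots. Depth limits MIR107, with 42 reads in its lowest library.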
